A study of Homo sapiens with 6 samples.

Results

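The baseline transcriptome of lung-metastatic breast cancer cells was described from 3 arrays, those of 4175 cells given a control siRNA, out of 6 arrays in the series. 4175 is a variant of MDA-MB-231, an established human breast cancer line that lacks oestrogen and progesterone receptors and HER2 amplification, and it is labelled as the lung variant of that line. The 3 arrays titled sicontrol (replicates 1, 2 and 3) were chosen by their titles, and the other 3 arrays of the series, labelled siPGC1alpha, were not compared with them. That second group is the same line treated with siRNA that targets PGC-1alpha. Cells of both groups were plated, received siRNA 24 hours later and were kept with it for 48 hours, so these are siRNA-treated cells and not untouched ones. Total RNA was used, of which 10 ng per sample was labelled with a low-input kit. Neither the sequence of the control siRNA nor the clonality of the line is given in the labels. Nothing in the labels says that the 3 replicates came from separate cultures, so the spread between them may be technical. Below, array 1, array 2 and array 3 are sicontrol replicates 1, 2 and 3.

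An array of this kind measures each transcript through short probes fixed to its surface, and the brightness of a group of such probes, a probe set, is summarised as 1 value. The values were read as log2 signals from their range, a scale on which a step of 1 is a doubling of the signal. Probe sets differ in how strongly their probes bind, so the order of signals between genes is an order of brightness and only a rough guide to transcript abundance. A gene that is not transcribed still gives a signal, because other RNA sticks to its probes. Arrays therefore carry negative control probe sets, whose sequences should match no human transcript, and ERCC probe sets, which match synthetic spike-in RNAs. No label says whether spike-in RNA was added to these samples.

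Signal was available for 17687 genes, each represented by its brightest probe set. A cultured carcinoma line of this type is known to put much of its messenger RNA into ribosomal proteins, translation factors, glycolytic enzymes and the cytoskeleton, and MDA-MB-231 is known as a mesenchymal-like line that makes inflammatory cytokines and proteases. MDA-MB-231 is also known to carry a homozygous deletion of the CDKN2A locus. Metallothioneins are small cysteine-rich proteins that bind zinc, copper and cadmium, and their genes are switched on by the zinc-sensing factor MTF1 through metal response elements in their promoters.

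The promoters of 7 genes are shown first, because metallothioneins stood among the brightest genes and because the bases of promoters differed between bright and dim genes. Each sequence is the 200 bases upstream of the annotated start of the gene, 5′ to 3′ on the strand of the gene, from RefSeq, build GRCh38.p14. In the 4 metallothionein genes the capitals mark the core of the metal response element, searched as TGCACNC or TGCGCNC on both strands, with overlapping matches allowed. They are MT2A (chr16:56608384-56608583, plus strand), MT1X (chr16:56682270-56682469, plus strand), MT1B (chr16:56651686-56651885, plus strand) and MT4 (chr16:56564873-56565072, plus strand).
MT2A: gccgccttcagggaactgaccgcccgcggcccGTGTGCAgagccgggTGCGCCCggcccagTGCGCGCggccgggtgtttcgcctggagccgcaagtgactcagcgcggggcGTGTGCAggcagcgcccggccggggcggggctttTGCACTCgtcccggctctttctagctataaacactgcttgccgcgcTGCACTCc
MT1X: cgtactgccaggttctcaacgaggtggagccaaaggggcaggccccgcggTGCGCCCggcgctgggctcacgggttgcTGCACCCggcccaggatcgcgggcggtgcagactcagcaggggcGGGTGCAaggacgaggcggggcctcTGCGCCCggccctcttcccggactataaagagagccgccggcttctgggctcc
MT1B: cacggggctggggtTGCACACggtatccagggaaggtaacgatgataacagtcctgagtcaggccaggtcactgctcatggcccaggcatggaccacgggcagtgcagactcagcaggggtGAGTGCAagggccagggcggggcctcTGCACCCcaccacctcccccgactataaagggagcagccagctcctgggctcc
MT4: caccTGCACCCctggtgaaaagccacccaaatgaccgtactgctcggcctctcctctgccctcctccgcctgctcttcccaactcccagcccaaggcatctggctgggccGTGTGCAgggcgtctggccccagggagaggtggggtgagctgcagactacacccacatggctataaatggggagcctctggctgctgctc

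In the other 3 genes the capitals mark CG dinucleotides. They are TUBA1B, the gene with the highest signal (chr12:49131396-49131595, minus strand), IL1B, the brightest cytokine gene (chr2:112836780-112836979, minus strand), and the odorant receptor gene OR4A47, one of the 10 dimmest genes (chr11:48488593-48488792, plus strand).
TUBA1B: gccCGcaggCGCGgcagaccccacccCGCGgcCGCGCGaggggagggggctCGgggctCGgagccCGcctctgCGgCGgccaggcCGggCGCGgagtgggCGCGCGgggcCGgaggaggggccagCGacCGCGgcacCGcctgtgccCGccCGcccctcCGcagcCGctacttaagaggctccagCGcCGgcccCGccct
IL1B: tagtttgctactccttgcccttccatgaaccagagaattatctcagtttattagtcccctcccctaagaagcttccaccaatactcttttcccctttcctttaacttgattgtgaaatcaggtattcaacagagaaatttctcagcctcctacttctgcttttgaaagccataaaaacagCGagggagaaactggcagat
OR4A47: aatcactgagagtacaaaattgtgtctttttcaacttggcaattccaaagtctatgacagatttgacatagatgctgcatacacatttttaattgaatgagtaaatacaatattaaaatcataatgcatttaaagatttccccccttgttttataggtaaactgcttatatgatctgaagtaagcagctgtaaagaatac

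The MT2A stretch held 6 matches to the metal response core, the MT1X stretch 4, the MT1B stretch 3 and the MT4 stretch 2. CG dinucleotides numbered 31 in the TUBA1B stretch, 1 in the IL1B stretch and 0 in the OR4A47 stretch. A match is a run of letters, and whether any factor binds there was not measured.

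The 3 arrays were alike in overall signal. The median over genes was 7.28 on array 1, 7.29 on array 2 and 7.29 on array 3. The normalization of the deposited values was not stated, and normalization can set such medians equal. A further quantile normalization moved the named genes by a median of 0.0014. Whether the likeness came from processing was not tested. The 612 negative control probe sets lay far lower, with medians of 3.44, 3.27 and 3.37 on arrays 1, 2 and 3 and 95th percentiles of 5.53, 5.38 and 5.56. The 63 ERCC probe sets had medians of 5.04, 5.09 and 5.11 and none read above 7.57, so they lay between the negative controls and the typical gene. The array medians varied with an SD of 0.084 for the negative controls and 0.036 for the ERCC probe sets (n = 3 each).

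**Figure D1:**
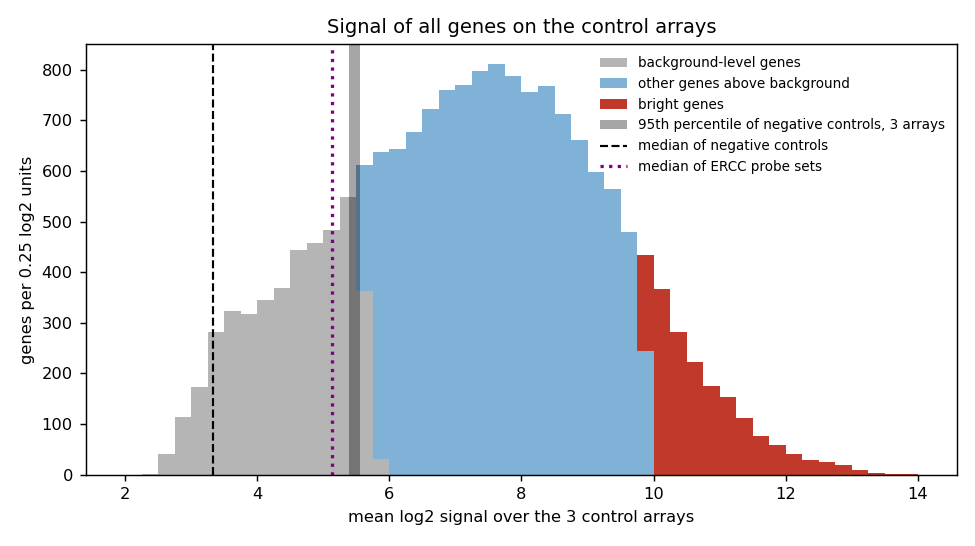
Histogram of the mean log2 signal of 17687 genes over the 3 control arrays, in steps of 0.25, stacked by class, with lines at the medians of the negative control (3.34) and ERCC (5.12) probe sets and a band for the 3 arrays' 95th percentiles of the negative controls (5.38 to 5.56). Most genes lie above the band, and the bright class begins at 9.88.

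A gene was called above background where its signal exceeded the 95th percentile of the negative controls on each of the 3 arrays. By this rule 13373 of 17687 genes (75.6%) were above background and 4314 (24.4%) were at background level. With the stricter 99th percentile 10746 genes (60.8%) remained. The call was the same on all arrays for most genes, since 3496 genes exceeded the threshold on no array and 818 (4.62%) on only some. Among the negative controls themselves 15 of 612 (2.45%) met the rule, and among the ERCC probe sets 10 of 63 (15.9%) did, the highest at a mean of 7.53. The olfactory receptors, odour sensors of the nose that a breast cancer line is not known to use, give a second gauge: 31 of 349 genes whose symbols start with OR (8.88%) met it, with a family median of 3.98. A signal past this threshold is therefore not by itself evidence of transcription.

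The bright class is the 10.0% of genes with the highest mean, 1769 genes with means of 9.88 to 13.96 and a median of 10.56. The last gene inside and the first gene outside both read 9.88, so the boundary separates no distinct groups. Of the 1769 genes, 1656 (93.6%) were among the brightest 10.0% on each array taken alone. The middle class, from the 45th to the 55th percentile, held 1769 genes with a median of 7.28 and a highest mean of 7.56. The background-level class had a median of 4.62, which is above the median of the negative controls (3.34) and below that of the ERCC probe sets (5.12).

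TUBA1B, an alpha-tubulin of the microtubules, was the brightest gene of all and read 13.93, 13.97 and 13.98 on arrays 1, 2 and 3 (mean 13.96 ± 0.023, SD, n = 3). MT2A, the main metallothionein of most human cells, followed at 13.84, 13.87 and 13.86 (13.86 ± 0.014). GAPDH, a glycolytic enzyme, read 13.61, 13.49 and 13.51 (13.53 ± 0.064). The values of these 3 genes did not overlap. EEF1A1, which brings aminoacyl-tRNA to the ribosome, averaged 13.29 ± 0.062 and RPS15, a protein of the small ribosomal subunit, 13.23 ± 0.0018 (SD, n = 3 each). Further cytoskeletal genes among the 20 brightest were the alpha-tubulin TUBA1C (13.33), the gamma-actin ACTG1 (13.16) and the actin-binding profilin PFN1 (13.12). ANXA2, a calcium-dependent membrane-binding protein, averaged 13.13 ± 0.045 (SD, n = 3). The translation factor EIF5A (13.01), the ribosomal proteins RPL38 (13.22), RPS4X (13.04) and RPS23 (12.97) and the histones H2BC12 and H1-4 (12.92) were also there. Replicate spread did not resolve most of this order: of the 19 neighbouring pairs among the 20 brightest genes, 14 overlapped in their array values and 5 did not.

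**Figure D2:**
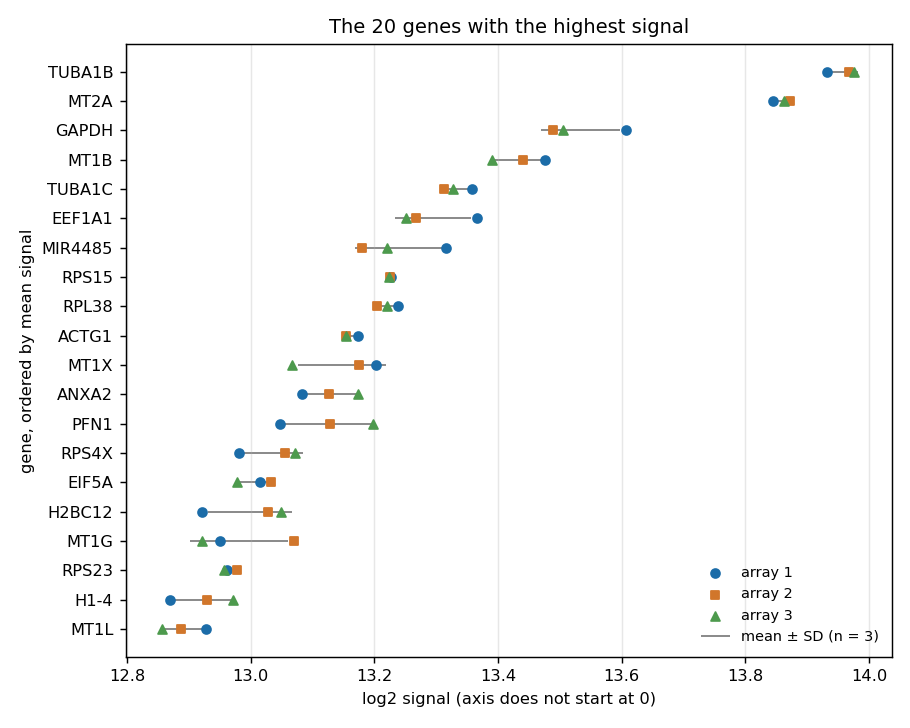
Log2 signal of the 20 brightest genes on control arrays 1 to 3 (points), with lines for the mean ± SD (n = 3) and genes ordered by mean from TUBA1B (13.96) at the top to MT1L (12.89) at the bottom. From TUBA1C downwards neighbouring genes overlap, except RPL38 and ACTG1, and 5 of the 20 are metallothionein genes.

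How far probe choice can move a gene's place was measured on the 20 genes that have more than 1 probe set. Their probe sets differed by a median of 0.67 in mean signal, from 0.014 for PLCXD1 to 4.17 for PALM2AKAP2, and for 6 of the 20 by more than 1. The median difference is larger than the median SD between arrays of 0.0986. Both genes were chosen after their values were seen.

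Metallothionein genes supplied 5 of the 20 brightest genes. By symbol 12 members were measured, with means of 6.57 to 13.86, a median of 12.19 and 10 of 12 in the bright class, where 10.0% of all genes fell. After MT2A came MT1B at 13.48, 13.44 and 13.39 (13.44 ± 0.043, SD, n = 3) and MT1X at 13.20, 13.17 and 13.07 (13.15 ± 0.072). MT1G averaged 12.98 ± 0.079 and the transcribed pseudogene MT1L 12.89 ± 0.036 (SD, n = 3 each). MT3, known as the brain form, averaged 8.44 ± 0.27, and MT4, known from stratified squamous epithelium, 6.57 ± 0.096 (SD, n = 3 each). MT4 was chosen after its values were seen. The MT1 genes and MT2A are near-identical copies, and RNA of 1 copy can bind probes of another, so the signal of a single member is uncertain. How much of each value came from other copies was not tested.

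Promoters of 300 bases (250 before to 50 after the start) were on hand for 5 of the metallothionein genes. MT2A and MT1H held 8 matches each to the metal response core, MT1X held 4, and MT1B and MT4 held 3 each. Across the 14250 genes of the array with such a promoter, 5004 (35.1%) held at least 1 match and 414 (2.91%) held 3 or more. MT4 held as many as MT1B, with a mean signal of 6.57 against 13.44.

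Ribosomal proteins formed the brightest list. Of 77 listed genes of the cytosolic ribosome, 45 were measured under 1 symbol. All 45 were above background and all 45 were bright, with a median of 12.20. The shares of all genes, for this list and those below, were 75.6% above background and 10.0% bright. RPL27 was the dimmest at 10.72, 10.53 and 10.54 (10.60 ± 0.11, SD, n = 3). The list's median was 12.30 on array 1, 12.20 on array 2 and 12.17 on array 3. Among translation factors 20 of 23 measured genes were bright and the median was 11.03. EIF3B, a scaffold subunit of initiation factor eIF3, was their dimmest at 9.10 ± 0.063.

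Of the 22 genes of glycolysis, 13 were bright and the list median was 11.17. ENO1, the common enolase, averaged 12.86 ± 0.022 and LDHA, which turns pyruvate into lactate, 12.86 ± 0.057 (SD, n = 3 each). The dimmest members were forms known from other tissues. LDHC, the testis lactate dehydrogenase, averaged 6.19 ± 0.057, PKLR, the liver and red cell pyruvate kinase, 6.66 ± 0.13, and ENO3, the muscle enolase, 6.85 ± 0.098.

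Of 38 nuclear-encoded genes of the respiratory chain and ATP synthase, 38 were above background and 19 were bright, with a median of 9.86. ATP5F1B, a catalytic subunit of the ATP synthase, read 12.62, 12.63 and 12.60 (12.62 ± 0.017, SD, n = 3). COX8A averaged 12.19 ± 0.028 and ATP5MC1 12.16 ± 0.028 (SD, n = 3 each). The lowest members were again forms known from particular tissues, the lung form COX4I2 at 6.54 ± 0.12 and the muscle forms COX7A1 at 7.31 ± 0.062 and COX6A2 at 8.34 ± 0.046 (SD, n = 3 each).

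Genes of the cell cycle were above background throughout. All 30 genes of cell division were above the 95th and the 99th percentile of the negative controls, 20 were bright and the median was 10.21. PLK1, a mitotic kinase, averaged 12.03 ± 0.030 (SD, n = 3). BUB3 of the spindle checkpoint averaged 11.89 ± 0.051 and CDC20, the activator of the anaphase-promoting complex, 11.74 ± 0.065 (SD, n = 3 each). All 33 genes of DNA replication were above background and 14 were bright, led by RRM1, a subunit of ribonucleotide reductase, at 11.68 ± 0.056. LIG1, the replicative DNA ligase, was the dimmest at 7.43 ± 0.087.

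Housekeeping lists of protein folding, degradation and RNA processing lay in the same range. Proteasome subunits had a median of 10.26 with 21 of 31 bright. The dimmest was PSMB10, an immunoproteasome subunit that interferon-gamma is known to induce, at 7.75 ± 0.18, whereas the constitutive PSMB7 averaged 11.28 ± 0.028 (SD, n = 3 each). Splicing and RNA-binding proteins had a median of 10.53 with 21 of 31 bright, and chaperones one of 11.06 with 19 of 24 bright. CALR, a chaperone of the endoplasmic reticulum, averaged 12.44 ± 0.015 (SD, n = 3). Of 36 cytoskeleton and motility genes 28 were bright. TAGLN, a smooth muscle actin-binding protein, was their dimmest at 7.27 ± 0.011 (SD, n = 3).

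**Figure D3:**
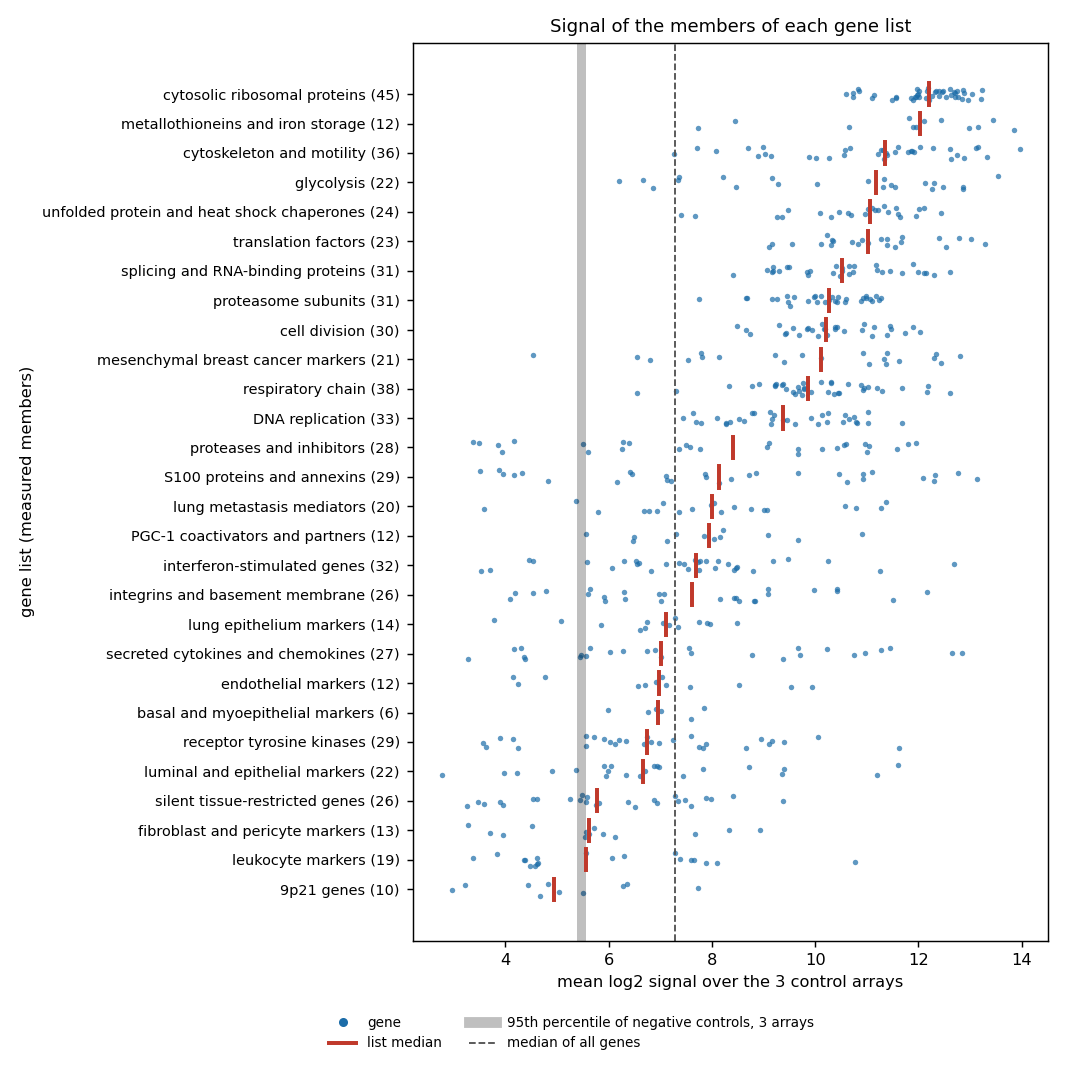
Mean log2 signal of every measured member (points, n of each list in brackets) of 28 gene lists, ordered by list median (red bar), with the 3 arrays' 95th percentiles of the negative controls as a band and the median of all genes (7.28) as a dashed line. Cytosolic ribosomal proteins lead with a median of 12.20 and the 9p21 genes come last with 4.93. Lists of secreted and surface proteins span from the band's left to over 11.

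Markers of mesenchymal-like breast cancer were read next, from a list chosen with earlier results of these data known. Of 21 measured markers, 20 were above background and 11 were bright, against 75.6% and 10.0% of all genes, with a median of 10.11. VIM, the intermediate filament vimentin, read 12.79, 12.82 and 12.80 (12.80 ± 0.017, SD, n = 3). FOSL1, an AP-1 transcription factor, averaged 12.44 ± 0.064 and NT5E, the ectonucleotidase CD73, 12.34 ± 0.038 (SD, n = 3 each). CD44, the hyaluronan receptor, averaged 11.04 ± 0.071, CAV1 of the caveolae 11.40 ± 0.023 and ZEB1, a repressor of epithelial genes, 10.11 ± 0.020 (SD, n = 3 each). Lower members were S100A4 (8.14), ZEB2 (7.82), LOX (7.79), TWIST1 (7.53), CAV2 (6.81) and CDH11 (6.56). These 6 passed the 99th percentile of the negative controls, but genes restricted to other tissues, given below, reached such signals too. CDH2, N-cadherin, was the only one of the 21 at background level, at 4.73, 4.45 and 4.41 (4.53 ± 0.17, SD, n = 3).

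Luminal and epithelial markers were mixed. Of 22 measured, 17 (77.3%) were above the 95th percentile of the negative controls, near the 75.6% of all genes, and 11 (50%) were above the 99th, beside 60.8%. The bright class held 2 (9.09%), beside 10.0% of all genes, and the list median was 6.66. The keratins of simple epithelium were high, KRT8 at 11.61 ± 0.072 and KRT18 at 11.19 ± 0.018, with KRT19 at 9.40 ± 0.15 (SD, n = 3 each). XBP1 (9.35), CLDN7 (8.71), GATA3 (7.83) and EPCAM (7.43) were above the 99th percentile as well. CDH1, E-cadherin, read 3.75, 3.91 and 4.26 (3.97 ± 0.26, SD, n = 3) and PGR, the progesterone receptor, 2.73, 2.85 and 2.70 (2.76 ± 0.078, SD, n = 3). Both were at background level on each array. ESRP1, an epithelial splicing factor, averaged 4.23 ± 0.19 and GRHL2, an epithelial transcription factor, 4.90 ± 0.14, also at background level. ESR1, the oestrogen receptor, averaged 5.99 ± 0.24, above the 95th and below the 99th percentile. Of 6 measured basal markers all were above background and none was bright, beside 75.6% and 10.0% of all genes. They ran from KRT14 at 5.98 to OXTR at 7.85.

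Genes linked in published work to lung metastasis of breast cancer were measured for 20 of 24 listed. Of these 18 (90.0%) were above background and 4 (20%) were bright, beside 75.6% and 10.0% of all genes, with a median of 8.01. SPARC, a secreted matrix protein, read 11.34, 11.38 and 11.39 (11.37 ± 0.028, SD, n = 3). CXCL1, a chemokine that draws neutrophils, averaged 11.27 ± 0.034 and LY6E 10.80 ± 0.13 (SD, n = 3 each). MMP1, a collagenase, averaged 9.07 ± 0.058 and ID1, an inhibitor of basic helix-loop-helix factors, 9.01 ± 0.031 (SD, n = 3 each). These 2 were chosen after their values were seen. VCAM1, also chosen so, averaged 6.69 ± 0.20. CXCR4, the receptor of CXCL12, averaged 5.37 ± 0.19 and IL13RA2, a decoy receptor for interleukin 13, 3.58 ± 0.12, both at background level (SD, n = 3 each). No parental cells were on these arrays, so none of these values shows a gain or loss in the lung variant.

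Secreted cytokines spanned the whole scale. Of 27 measured, 19 (70.4%) were above background and 7 (25.9%) were bright, beside 75.6% and 10.0% of all genes. IL1B, the pro-inflammatory interleukin 1 beta, read 12.86, 12.81 and 12.85 (12.84 ± 0.022, SD, n = 3) and ranked 27th of all genes. CSF3, the growth factor of neutrophils, read 12.61, 12.66 and 12.69 (12.65 ± 0.042, SD, n = 3) and ranked 42nd. Both signals were as high as those of many ribosomal proteins. IL6 read 11.65, 11.35 and 11.35 (11.45 ± 0.18, SD, n = 3), with array 1 above the other 2. At the other end IL33, an alarmin of barrier tissues, averaged 3.27 ± 0.10, TSLP 4.16 ± 0.33 and CXCL11, an interferon-induced chemokine, 4.31 ± 0.38, all at background level (SD, n = 3 each).

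Proteases and their inhibitors also ran from bright to background level. Of 28 measured, 21 (75%) were above background, the share of all genes being 75.6%, and 10 (35.7%) were bright, beside 10.0%, with a median of 8.42. PLAU, the urokinase plasminogen activator, averaged 11.95 ± 0.045, TIMP1, an inhibitor of matrix metalloproteinases, 11.80 ± 0.047 and CTSD, a lysosomal protease, 11.59 ± 0.030 (SD, n = 3 each). MMP7 averaged 3.38 ± 0.078, SERPINB5, the epithelial serpin maspin, 3.48 ± 0.28 and MMP13 3.86 ± 0.16, all at background level (SD, n = 3 each). Integrins and basement membrane genes were led by ITGB1, the common beta-1 chain, at 12.16 ± 0.061, ITGA3, a laminin-binding alpha chain, at 11.51 ± 0.023 and the laminin chain LAMC1 at 10.42 ± 0.084 (SD, n = 3 each). ITGB6, the epithelial beta-6 chain, read 4.06, 3.94 and 4.27 and ITGB8 4.78, 4.13 and 4.68. Of 26 in the list 21 (80.8%) were above background and 5 (19.2%) were bright, beside 75.6% and 10.0% of all genes.

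Receptor tyrosine kinases as a list lay near the typical gene. Of 29 measured, 22 (75.9%) were above the 95th percentile, beside 75.6% of all genes. The 99th was passed by 15 (51.7%), beside 60.8%, and 2 (6.90%) were bright, beside 10.0%, with a median of 6.74. AXL, the receptor of GAS6, read 11.55, 11.67 and 11.66 (11.63 ± 0.067, SD, n = 3). EPHA2 averaged 10.06 ± 0.019 and EGFR 9.40 ± 0.046 (SD, n = 3 each). KIT averaged 3.62 ± 0.20, FLT1 3.56 ± 0.13 and NTRK2 3.90 ± 0.096, at background level (SD, n = 3 each). Among S100 proteins and annexins 23 of 29 (79.3%) were above background, beside 75.6% of all genes, and 10 (34.5%) were bright, with S100A11 at 12.77 ± 0.0066 and S100A10, the partner of ANXA2, at 12.32 ± 0.055. S100A8, a myeloid calcium-binding protein, averaged 3.51 ± 0.22.

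Interferon-stimulated genes were measured for 32 of 35 listed. Of these 27 (84.4%) were above background, beside 75.6% of all genes, and 3 (9.38%) were bright, beside 10.0%, and the median was 7.70. The 3 were the membrane proteins IFITM3 (12.68 ± 0.12), IFITM2 (11.26 ± 0.057) and IFITM1 (10.25 ± 0.075), close paralogs whose probes may share RNA (SD, n = 3 each). IFI44L averaged 3.71 ± 0.23, USP18 4.47 ± 0.17 and TRIM22 3.52 ± 0.10, all at background level.

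The 9p21 list takes in genes at and around CDKN2A, the locus known to be lost in MDA-MB-231, with the type I interferon genes beside it. It was the dimmest of the 28 lists, with a median of 4.93, and 3 of its 10 measured members (30.0%) were above background, beside 75.6% of all genes. Those at background level include the interferon genes IFNA1 and IFNB1, and what part the deletion has in the list's level was not tested. CDKN2B, an inhibitor of CDK4 and CDK6, read 7.67, 7.73 and 7.79 (7.73 ± 0.059, SD, n = 3). It was above the 99th percentile of the negative controls on each array and above the median of all genes (7.28). CDKN2A read 6.36, 6.31 and 6.39 (6.35 ± 0.041, SD, n = 3), above the 95th and below the 99th percentile of the negative controls. MTAP, a methionine salvage enzyme next to CDKN2A that most cells use, read 4.96, 4.62 and 4.43 (4.67 ± 0.27, SD, n = 3), at background level. MTAP was chosen after its values were seen. All of these values lie in the range that markers of absent cell types, given below, also reached.

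Markers of cell types that a pure culture should not hold were read the same way. Of 19 leukocyte markers, 9 (47.4%) were above the 95th percentile and 7 (36.8%) above the 99th, beside 75.6% and 60.8% of all genes. CD68, a lysosomal protein also made outside macrophages, stood apart at 10.72, 10.74 and 10.84 (10.77 ± 0.067, SD, n = 3). PTPRC, the pan-leukocyte marker CD45, averaged 4.49 ± 0.073, CD3D 4.61 ± 0.20 and MS4A1 4.37 ± 0.089, all at background level (SD, n = 3 each). TYROBP read 7.89, 8.26 and 8.13. CD79A (7.89), NKG7 (7.66), CSF1R (7.60), CD14 (7.38) and ITGAX (7.28) were also above the 99th percentile. CD8A (6.29) and CD3E (6.06) were above the 95th and not above the 99th.

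Of 12 endothelial markers, 9 (75%) were above background, a share like that of all genes (75.6%). The 99th percentile was passed by 7 (58.3%), beside 60.8% of all genes. The markers were led by the junction protein ESAM at 9.95 ± 0.14 (SD, n = 3). EGFL7 (9.53), ROBO4 (8.52), VWF (7.57), TIE1 (7.10), ERG (7.03) and CLDN5 (6.92) were also above the 99th percentile. KDR, the main VEGF receptor, read 4.14 on all arrays and TEK averaged 4.25 ± 0.24 (SD, n = 3). Both were at background level, as was EMCN (4.77). PECAM1 averaged 6.57 ± 0.13 and CDH5 6.70 ± 0.17 (SD, n = 3 each). Of 13 fibroblast and pericyte markers 6 (46.2%) were above background, beside 75.6% of all genes. COL1A2 and COL1A1, the chains of collagen I, averaged 8.94 ± 0.12 and 8.34 ± 0.082, whereas LUM averaged 3.70 ± 0.13 and FAP 3.28 ± 0.074 (SD, n = 3 each).

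Of 14 lung epithelium markers 12 (85.7%) were above the 95th percentile and 9 (64.3%) above the 99th, beside 75.6% and 60.8% of all genes, and none was bright. SCGB3A1, an airway secretory protein, averaged 8.48 ± 0.070, NKX2-1, the lung and thyroid transcription factor, 7.76 ± 0.087 and SFTPC, a surfactant protein of alveolar cells, 6.71 ± 0.039 (SD, n = 3 each). SCGB1A1, the club cell marker, averaged 3.79 ± 0.27, at background level. The list as a whole lay near the typical gene, with a median of 7.11 beside 7.28.

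A list of 26 genes restricted to other tissues, such as globins, lens crystallins, protamines and pancreatic enzymes, gave the level that such genes reached on these arrays. Of the 26, 14 (53.8%) were above the 95th percentile and 10 (38.5%) above the 99th, beside 75.6% and 60.8% of all genes, none was bright, and the list median was 5.78. GAD1, an enzyme of GABA synthesis known from neurons, was the highest at 9.28, 9.42 and 9.44 (9.38 ± 0.087, SD, n = 3). ACTN2, the muscle actinin, averaged 8.41 ± 0.093 and PRM2, a protamine of sperm chromatin, 7.99 ± 0.14 (SD, n = 3 each). MYL2, a heart myosin chain, averaged 3.26 ± 0.19. Signals of 6 to 8 thus occurred for genes that are not known to be made by epithelial tumours, and the part that probe binding by other RNA plays in them was not tested.

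PPARGC1A, the gene of PGC-1alpha, a coactivator that is known to drive mitochondrial biogenesis and was the target in the other group, lay in that range. It read 6.45, 6.49 and 6.49 on arrays 1, 2 and 3 (6.48 ± 0.021, SD, n = 3) and ranked 11267th of 17687 genes. PPARGC1A was above the 95th percentile of the negative controls on each array. It passed the 99th percentile (6.56, 6.33 and 6.55 on arrays 1, 2 and 3) on array 2 alone. Its relative PPARGC1B averaged 6.49 ± 0.066 and PPRC1 9.09 ± 0.046 (SD, n = 3 each). Among 12 measured coactivators and partner factors 12 (100%) were above the 95th percentile, 9 (75%) above the 99th and 1 (8.33%) was bright. The shares of all genes were 75.6%, 60.8% and 10.0%. That gene was TFAM, which packages and transcribes mitochondrial DNA, at 10.99, 10.87 and 10.86 (10.91 ± 0.071, SD, n = 3). PPARD averaged 9.66 ± 0.052 and ESRRG 5.57 ± 0.10 (SD, n = 3 each).

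The 10 genes nearest the median of all genes were SCYL3, ERI2, INPP5B, ZNF318, CLTCL1, ZWILCH, CLEC18C, IBA57, MTERF4 and FRAT2, with means of 7.28 to 7.29. Their SDs ran from 0.0051 for CLEC18C to 0.22 for INPP5B. The group mixes genes of wide use, such as ZWILCH of the kinetochore and MTERF4 of mitochondrial ribosome assembly, with others. The 10 dimmest were ZNF471 (2.44), CERS3 (2.49), OR4A47 (2.56), EFCAB3 (2.58), ASCL3 (2.60), MUC13 (2.61), LRRC9, CYTIP, KLRD1 and TRPA1 (2.62 each). Several are known from other tissues, among them KLRD1 of natural killer cells, MUC13 of the gut surface and CYTIP of leukocytes. All 10 lay below the median of the negative controls.

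The spread between arrays was small and fell with signal. The SD over the 3 arrays had a median of 0.0986 and a 95th percentile of 0.266 over all genes. In the brightest decile the median was 0.053 and in the dimmest decile 0.139. Among negative control probe sets it was 0.243 and among ERCC probe sets 0.078. A range over 1 between arrays, a 2-fold difference in signal, was seen for 9 of 17687 genes, of which 7 were at background level and 0 were bright.

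**Figure D4:**
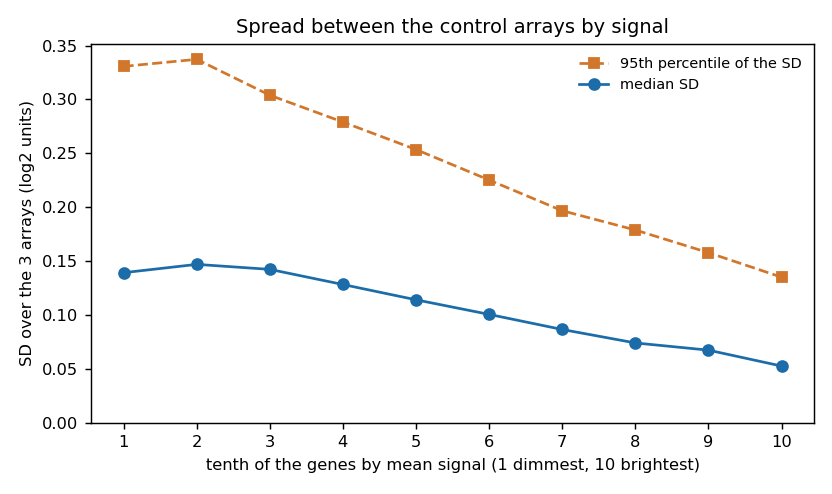
SD over the 3 control arrays against signal, in deciles of the 17687 genes from dimmest (1) to brightest (10): median of the SD (circles) and its 95th percentile (squares), in log2 units. The median falls from 0.147 in the second decile to 0.053 in the brightest, and the 95th percentile from 0.337 to 0.135.

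Array 1 stood slightly apart. Arrays 2 and 3 differed by a median of 0.097 per gene, array 2 and array 1 by 0.122, and array 3 and array 1 by 0.118. Pearson's r across genes was 0.996 for arrays 2 and 3 and 0.995 for both pairs with array 1, as a description over 17687 genes that share probes and arrays. Differences over 0.5 were seen for 293 genes between arrays 2 and 3, for 496 between arrays 2 and 1 and for 399 between arrays 3 and 1. Of the 134 most variable genes above background (the top 1% by SD), array 1 was the farthest of the 3 in 73 (54.5%), array 2 in 39 and array 3 in 22, where array 1 was the farthest in 41.6% of all genes above background. Without array 1 the median SD was 0.069, without array 2 it was 0.083 and without array 3 it was 0.086. A median SD over 2 arrays tends to be lower than one over 3, so only these 3 values compare with each other.

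ULBP2, a stress-induced ligand of the NKG2D receptor on natural killer cells, had the largest SD above background and read 8.46, 9.73 and 9.63 (SD 0.71). Its paralog RAET1L, chosen after its values were seen, read 8.16, 8.92 and 8.80, also lowest on array 1. ADIPOR2, an adiponectin receptor, went the other way with 9.52, 8.43 and 8.57 (SD 0.59). SERPINE2, an inhibitor of thrombin and urokinase, read 10.06, 10.88 and 10.75 and IMP3, of ribosomal RNA processing, 9.24, 10.02 and 9.94. In each of these 5 genes array 1 lay apart from arrays 2 and 3. SFTPB, a surfactant protein and one of the lung markers above, read 6.23, 7.04 and 6.97. PUS7, a pseudouridine synthase, did not follow this pattern, with 7.46, 7.12 and 6.62.

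**Figure D5:**
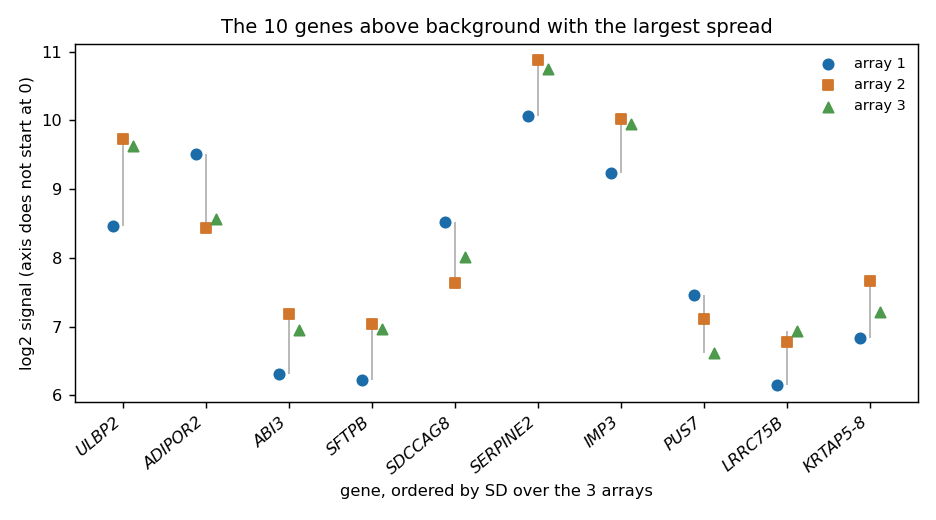
Log2 signal on control arrays 1 to 3 (points, joined by a grey line over their range) for the 10 genes above background with the largest SD, ordered from ULBP2 (SD 0.71) on the left. Array 1 lies at 1 end of the range in all 10, below the others for 7 genes and above them for ADIPOR2, SDCCAG8 and PUS7.

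Promoter bases, which the ranking did not use, changed along the order of signal. Promoters of 300 bases matched by gene identifier for 14250 of 17687 genes (80.6%). The median number of CG dinucleotides was 4 in the dimmest decile, 8, 12, 19 and 23 in the next 4, and 25 to 27 in the brighter 5, against 22 over all matched genes. The GC content had a median of 47.7% in the dimmest decile and 64.7% in the brightest. The letters TATAAA, searched on the strand of the gene anywhere in the window, occurred in 15.2% of promoters in the dimmest decile and in 2.80% in the ninth, but in 5.44% in the brightest, with 6.81% over all. These shares are descriptions across genes, which are not independent replicates. The bright genes did not share one kind of promoter, as the stretches of TUBA1B and IL1B printed above show.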

How the data were processed

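Total RNA was hybridised to Affymetrix arrays of 1 colour, and the 3 sicontrol arrays were assigned to their group and replicate number by title. The values, as deposited by the authors in the series' value table, were taken as log2 signals per probe set; that scale was inferred from their range. The authors' background correction and normalization were not stated in the labels. A further table with 6 columns that match no sample was not used. The table held 24320 probe sets, of which a platform annotation gave 1 gene symbol to 17709, several symbols to 0 and none to 6611. Unnamed probe sets were classed by their identifiers. For 20 genes with several probe sets the brightest over the 3 arrays was kept. No detection call or scan batch was among the values used, and the number of arrays limits the precision.

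Means, SDs, counts and percentiles were computed in Python 3.11.15 with pandas 2.3.3, and no test between groups was made. Background was each array's 95th percentile of 612 negative control probe sets, to be exceeded on all 3 arrays. An intercept-only limma 3.58.1 fit in R 4.3.3 served as an alternative rule for above background (one-sided, Benjamini-Hochberg adjusted p under 0.05). The calculations were tested on simulated data. RefSeq promoters (GRCh38.p14) were matched by gene identifier. Protein length was planned as a further feature and was not used here.

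The members, the 28 lists (758 genes, 653 measured) and the settings were chosen with earlier results of these data known. Named genes are the 20 brightest, the 10 nearest the median, the 10 dimmest, the 10 with the largest SD above background, the 3 brightest and 3 dimmest of each list, every measured cell type marker and PPARGC1A. Not all of these genes are printed above, and of most marker lists only some markers are. The settings varied were the background percentile, ERCC probe sets or olfactory receptor genes as background (the last chosen after seeing the data), the rule over arrays, normalization, the probe set rule, the class size, the ranking, a filter on dim genes and each array left out in turn.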

Additional observations from a re-analysis of the deposited data

Results flagged for a closer look

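Probe sets without a gene symbol were outside the ranking, and 3 classes of them read above the negative controls, whose median was 3.34. The 10 probe sets assigned to the mitochondrial genome had a median of 13.38, from 10.63 to 13.67, and 7 of the 10 exceeded 13, a level that few named genes reached. Array 1 was the highest of the 3 arrays in 8 of these 10. MIR4485, a named locus on chromosome 11 that is known to be near-identical to mitochondrial 16S ribosomal RNA, averaged 13.24 and was the 7th brightest gene, and how much of its signal came from mitochondrial RNA was not tested. The 551 unmapped transcript probe sets had a median of 6.56, with 393 (71.3%) above background, and the other 3178 without a symbol had a median of 6.46, with 2085 (65.6%) above it, beside 75.6% of named genes. Of the 3739 unnamed probe sets in these 3 classes, 326 (8.72%) were as bright as the bright class.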

How the results depend on the processing

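No paired analysis was possible because the values come from 1 group of arrays and from no test between groups. Of 297 summary values under the alternatives, list medians and named genes not counted, 279 stayed within a tolerance. It was the spread between arrays, for gene counts 1.5 times, and for CG counts the SD across genes. For the median SD it was the spread of its values with 1 array left out. The medians of the 28 lists were counted apart, and 4 moved without array 1, 3 without array 2 and 2 without array 3. Quantile normalization, median centring and averaging a gene's probe sets moved 0 of 37 values each. These 3 could move little, since centring shifts genes and controls together and only 20 genes have several probe sets. Quantile normalization moved named genes by a median of 0.0014. The number of genes above background, 13373, became 15964 with the 75th percentile, 10746 with the 99th, 9966 with the 95th percentile of the ERCC probe sets, 14359 with their median, 11683 with the 95th percentile of the olfactory receptor genes, 13791 with the mean rule, 13347 with the limma rule, and 13398 to 13583 with 1 array left out. With the brightest 5% or 25% in place of 10%, the bright class began at 10.56 or 8.71 and had a median of 11.14 or 9.65. The background-level median of 4.62 became 3.68 with the 75th percentile and 5.30 with the 99th, and 4.56 to 4.60 with 1 array left out, where fewer arrays have to pass. The median SD of 0.0986 was 0.0867 over genes above background and 0.0686 to 0.0862 with 1 array left out, lowest without array 1. A median SD over fewer arrays tends to be lower. Of the lists, the 9p21 genes above background were 8 with the 75th percentile and 1 with the 99th (3 in the report), luminal markers 11 with the 99th (17), leukocyte markers 17 with the 75th (9), and fibroblast markers 10 with the 75th and 3 with the 99th (6). Of 266 named genes, 1 moved by more than its SD under quantile normalization. With 1 array left out, the largest shift of a named gene's mean was 0.41, without array 1. Signal over background is not by itself evidence of transcription on these arrays. Genes listed as restricted to other tissues read up to 9.38 (GAD1), and whether these genes are transcribed in this line was not tested.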

Other observations

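Grouped by the first letters of their symbols, 93 groups with at least 20 measured members could be ordered by median signal. Some of these, such as LOC, LINC and KIAA, share only a naming prefix and are not gene families. The groups shown were chosen after their values were seen. The highest were the RPL (11.88) and RPS (11.67) families of ribosomal proteins and their relatives, the EIF initiation factors (10.23) and the NUP nucleoporins (9.57). The lowest were the olfactory receptors (3.98), the DEFB beta-defensins (4.17), the TAS taste receptors (4.84), the CFAP proteins of cilia and flagella (5.07) and the RGS regulators of G-protein signalling (5.11). Single members left their group's level. Of 86 KRTAP genes, keratin-associated proteins known from hair, with a family median of 5.83, 4 (4.65%) were bright, beside 10.0% of all genes. The 3 highest were neighbours in name: KRTAP2-3 with a mean of 10.90 ± 0.16, KRTAP2-1 at 10.35, 10.74 and 10.69 on arrays 1, 2 and 3, and KRTAP2-2 at 10.25, 10.71 and 10.56. All 3 were lowest on array 1, and they are close paralogs whose probes may share RNA. The bitter taste receptors TAS2R31 (7.94, 7.99 and 8.06) and TAS2R14 (7.37, 7.23 and 7.58) stood out in the same way from TAS2R8 (2.64, 2.89 and 2.84), and OR10P1 was the brightest olfactory receptor at 7.33, 7.69 and 7.43.

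By gene type, 17249 protein-coding genes had a median of 7.32 with 76.0% above background, 306 long non-coding RNA genes one of 5.94 with 57.2%, and 117 transcribed pseudogenes one of 6.56 with 60.7%.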
